A study of Mus musculus with 12 samples.

Results

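The genes encoding the proteins of the mitochondrial ribosome were followed in RNA-seq of activated mouse B cells with and without Pdap1. They were taken as every protein-coding gene of the count table whose GENCODE M21 symbol starts with Mrpl or Mrps followed by a digit, which gave 78 of 55536 features. Mrpl symbols, used for the large subunit, made up 49 of the genes and Mrps symbols, used for the small subunit, made up 29. Another 5 features with such symbols were not protein coding and were left out. No measured value entered this choice.

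The cells were splenic B cells depleted of CD43+ cells, taken from 3 control and 3 Pdap1-deficient mice of the C57BL/6 background. All 6 mice carried one copy of a Cre allele active in the B lineage, controls included. In the Pdap1-deficient mice both copies of Pdap1 were floxed, and the floxed segment holds the second exon. Cells of each mouse were cultured for 48 h either with LPS and IL-4, which directs switching to IgG1, or with LPS, BAFF and TGFβ, which directs switching to IgG2b, and this gave 12 libraries in 4 groups of 3 mice. The labels also name the CH12 cell line, whereas the methods of the study describe primary B cells. The ages of single mice were not given in the sources used here.

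Mitochondria keep a small genome that encodes a few core subunits of the respiratory chain and ATP synthase and the RNA components of the mitochondrial ribosome. All proteins of that ribosome are instead encoded in the nucleus, made on cytosolic ribosomes and imported. The small subunit binds the mRNA and decodes it, and the large subunit forms the peptide bond. Activated B cells enlarge their mitochondria while they grow and divide, and the nuclear genes for oxidative phosphorylation (OXPHOS) and for mitochondrial translation are commonly driven by the factors NRF1, NRF2 (an ETS family complex) and YY1.

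The 78 genes were spread over 17 chromosomes, and none lay on the X chromosome. To show what their start regions share, promoters (250 bases before to 50 bases after the start) were read from RefSeq on GRCm38.p6, which held 69 of the 78 genes. On either strand, an NRF1 core (CGCANGCG) lay in 29.0% of these promoters against 8.33% of all 27025 promoters, with a single promoter kept per gene. Where several were listed for a gene, the one with the lowest coordinate was kept, whichever start the cells use. An ETS core (CCGGAAG) lay in 37.7% against 9.08%, and a YY1 core (AAGATGGC) in 17.4% against 2.86%. These rates were not particular to the members. Promoters of OXPHOS subunits, ribosome biogenesis genes and cytosolic ribosomal proteins held the NRF1 core in 39.1%, 29.3% and 19.0%. They held the ETS core in 25.0%, 39.7% and 41.4%, and the YY1 core in 15.6%, 5.17% and 10.3%. The median number of CG pairs was 21 in member promoters and 7 over all promoters. An E-box (CACGTG) was about as common as elsewhere, at 7.25% against 7.09%, and the SP core (GGGCGG) was found in 47.8% against 35.6%. A TATA motif (TATAAA) lay in 5.80% against 14.1%, and the letters TGATGNAA, the core of C/EBP-ATF elements, lay in 0% of these promoters against 4.07% of all. These letters were also at 0% in OXPHOS and cytosolic ribosomal protein promoters, and at 3.45% in those of ribosome biogenesis genes. Large and small subunit promoters held the NRF1 core in 32.6% and 23.1%, the ETS core in 34.9% and 42.3% and the SP core in 37.2% and 65.4%. No NRF1, ETS or YY1 core was found in 25 of the 69 promoters.

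The promoters of the 4 genes that passed the test in the comparison of genotypes below are printed next, with that of Mrps12 as an example of a gene with ETS and YY1 cores. RefSeq gave the sequences, printed from 5′ to 3′ on the strand of the gene, and a core on the opposite strand appears as its reverse complement. NRF1, ETS and YY1 cores are in capitals. The windows, all on GRCm38.p6, are chr4:155802628-155802927 (plus strand) for Mrpl20, chr19:4962056-4962355 (plus strand) for Mrpl11, chr2:130563507-130563806 (plus strand) for Mrps26, chr2:127587176-127587475 (plus strand) for Mrps5 and chr7:28741772-28742071 (minus strand) for Mrps12.
Mrpl20: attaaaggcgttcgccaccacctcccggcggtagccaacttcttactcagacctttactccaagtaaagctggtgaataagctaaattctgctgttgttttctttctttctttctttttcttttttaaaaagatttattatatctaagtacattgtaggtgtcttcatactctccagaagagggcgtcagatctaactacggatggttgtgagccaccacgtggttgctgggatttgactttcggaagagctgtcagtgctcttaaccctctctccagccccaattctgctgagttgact
Mrpl11: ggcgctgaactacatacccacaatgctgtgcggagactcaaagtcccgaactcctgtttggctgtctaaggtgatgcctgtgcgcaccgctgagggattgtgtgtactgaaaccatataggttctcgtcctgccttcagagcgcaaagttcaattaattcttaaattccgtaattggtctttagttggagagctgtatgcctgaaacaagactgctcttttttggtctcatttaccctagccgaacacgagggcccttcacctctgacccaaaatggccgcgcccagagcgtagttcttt
Mrps26: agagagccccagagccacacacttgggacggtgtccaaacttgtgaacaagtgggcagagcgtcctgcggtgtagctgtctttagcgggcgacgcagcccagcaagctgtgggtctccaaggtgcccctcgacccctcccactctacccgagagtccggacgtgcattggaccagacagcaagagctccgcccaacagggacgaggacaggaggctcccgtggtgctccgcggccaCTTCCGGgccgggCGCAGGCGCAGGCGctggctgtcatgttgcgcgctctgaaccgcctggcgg
Mrps5: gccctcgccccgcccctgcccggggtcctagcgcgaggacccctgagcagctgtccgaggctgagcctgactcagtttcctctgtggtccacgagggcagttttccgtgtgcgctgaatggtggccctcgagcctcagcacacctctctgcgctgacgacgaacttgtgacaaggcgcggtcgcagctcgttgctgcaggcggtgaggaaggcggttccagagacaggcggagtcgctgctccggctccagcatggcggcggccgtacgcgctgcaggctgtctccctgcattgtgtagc
Mrps12: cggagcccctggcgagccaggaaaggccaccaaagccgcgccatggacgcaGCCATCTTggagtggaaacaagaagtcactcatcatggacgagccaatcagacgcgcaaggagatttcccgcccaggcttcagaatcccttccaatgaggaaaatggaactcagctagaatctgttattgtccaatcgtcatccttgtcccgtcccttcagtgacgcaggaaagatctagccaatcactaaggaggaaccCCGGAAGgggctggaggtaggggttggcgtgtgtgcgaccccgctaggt
Of these genes, Mrps26 had 2 overlapping NRF1 cores beside an ETS core, and Mrpl20, Mrpl11 and Mrps5 had none of the 3 cores in this window. Any other start sites of these genes were not read. A match of letters is a description of the sequence and does not show that a factor binds there.

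Total counts were between 4579793 and 15869143 per library, except for control mouse 1 with LPS-BAFF-TGFβ, at 69500640. Pdap1 itself was at 91.4 to 97.8 CPM (the count of a gene per 1e6 counts of its library, after scaling) in control and 23.3 to 29.9 CPM in Pdap1-deficient libraries with LPS-IL-4, and at 80.3 to 199 against at most 26.4 CPM with LPS-BAFF-TGFβ. Of the B cell markers, Ms4a1 was at 464 to 1087 CPM, Pax5 at 690 to 943 CPM and Cd79b at 240 to 681 CPM in the 12 libraries, while T cell markers summed to at most 29.8 CPM. The 10 myeloid markers summed to 330 CPM with LPS-IL-4 and 563 CPM with LPS-BAFF-TGFβ in Pdap1-deficient mouse 2. In Pdap1-deficient mouse 3 their sum was also above that of every control, with Lyz2 at 9.62 and 40.9 CPM in the 2 cultures (controls at most 5.60 CPM), and in Pdap1-deficient mouse 1 it was not raised. The sums in the controls were 5.22 to 26.3 CPM, and 2 of the 10 markers were at 0 there throughout with LPS-IL-4. Between the stimulations, plasma cell markers differed too: 4 of 6 tested fell and 1 rose with LPS-BAFF-TGFβ in control mice, and 2 of 6 fell in Pdap1-deficient mice. Of all genes tested, 9.33% fell and 9.99% rose in control mice, and 5.89% fell in Pdap1-deficient mice. The part of myeloid and plasma cells in the results was not tested. In bulk RNA, fewer cells of a type and less RNA per cell cannot be told apart. Changes are given as log2 fold changes ± SE from edgeR's quasi-likelihood test on 3 mice per group, with p-values adjusted by Benjamini-Hochberg over all genes tested and a threshold of 0.05. The libraries of a group came from different mice.

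Of the 78 genes, 74 (48 large and 26 small subunit) passed the filter on low counts in every comparison. Mrpl53 and Mrps10 were listed at 0 in all 12 libraries and Mrps23 had 2 counts in all, so these genes were not measured. Exons of another gene, Gm42688, covered 88.0% of the Mrpl53 exons on the same strand. Mrps34 had 404 counts in all, 376 of them in control mouse 1 with LPS-BAFF-TGFβ, and failed the filter. Mapk8ip3 covered 63.4% of its exon length on the other strand, and 37.0% was covered on the same strand. The other members had a median of 138 to 504 counts per library, and 3161 in the deep library.

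Summed over all members, the mitochondrial ribosomal protein genes took 3085, 3231 and 3361 CPM in the 3 control libraries with LPS-IL-4 and 2848, 2275 and 2707 CPM in the Pdap1-deficient ones. With LPS-BAFF-TGFβ they took 3951, 2908 and 2886 CPM in controls and 2677, 2383 and 2626 CPM in Pdap1-deficient libraries. Every Pdap1-deficient library was thus below every control library of its stimulation, and control mouse 1 with LPS-BAFF-TGFβ was the highest of all 12. The ratio of large to small subunit sums stayed between 2.04 and 2.21 across the 12 libraries.

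Per kb of exon, levels in the LPS-IL-4 controls were highest for Mrps7, a small subunit protein, at 56.5 ± 3.2 CPM per kb (SD, n = 3) and for Mrpl45, a large subunit protein, at 49.8 ± 0.65. The top of this order depended on the length used. Per kb of the longest transcript, Mrpl20 was the highest at 80.5, Mrps7 was at 59.7 and Mrpl45 was at 53.2 CPM per kb. Mrpl23 was at 1.22 CPM per kb and Mrps34, which failed the filter, at 0.142 CPM per kb, the lowest of the genes with more than 2 counts. The spread between these genes, also with Mrps34 set aside, was thus far larger than the spread between mice.

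In LPS-IL-4 cultures, loss of Pdap1 came with lower mRNA of the mitochondrial ribosomal protein genes in both subunits, by small amounts. Mrpl20, Mrpl11, Mrps26 and Mrps5 fell, each by 1.44 to 1.61-fold, and no member rose. These were 4 of 74 genes tested, or 2 in each subunit, where 2.12% of all genes tested fell and 2.79% rose. Below 0 were 72 of the 74 log2 fold changes, against 47.3% of all genes tested. At an unadjusted p under 0.05 in edgeR, 38 members were lower and 1 was higher, where 1765 and 1817 of 15074 genes tested were.

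Mrpl20, a large subunit protein (chromosome 4, 155802878 to 155809975), was at 59.5, 64.0 and 72.1 CPM in controls and at 47.0, 36.4 and 38.4 CPM in Pdap1-deficient cells. The groups did not overlap, and its log2 fold change of −0.69 ± 0.13 had an adjusted p of 0.0194 in edgeR. Mrpl11, which contributes to the stalk base of the large subunit (chromosome 19, 4962147 to 4966999), was at 46.7, 42.2 and 46.9 CPM against 34.2, 28.2 and 32.9 CPM. The change was −0.52 ± 0.12, with an adjusted p of 0.0356 in edgeR, and again all 3 Pdap1-deficient mice were below the lowest control.

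Among small subunit genes, Mrps26 (chromosome 2, 130563742 to 130568695) was at 41.6, 41.2 and 49.6 CPM in controls and at 34.7, 26.7 and 27.1 CPM in Pdap1-deficient cells, a log2 fold change of −0.59 ± 0.14 with an adjusted p of 0.0400 in edgeR. Mrps5 (chromosome 2, 127587222 to 127606829), whose bacterial homologue helps keep decoding accurate, was at 58.2, 61.2 and 60.2 CPM against 43.6, 33.0 and 45.6 CPM. The SD of Mrps5 was 1.49 CPM in the controls and 6.76 CPM in the Pdap1-deficient mice. Its change was −0.57 ± 0.13 with an adjusted p of 0.0419 in edgeR. Just beyond the threshold came Mrpl38 at −0.58 ± 0.15 and Mrpl42 at −0.53 ± 0.14, each with an adjusted p of 0.0539 in edgeR, and Mrps28 at −0.54 ± 0.15 with an adjusted p of 0.0636 in edgeR. Mrpl38 was at 43.6, 44.0 and 51.6 CPM in controls and 36.0, 24.8 and 32.7 CPM in Pdap1-deficient cells. Mrpl42 was at 54.7, 55.1 and 51.2 CPM against 44.0, 31.3 and 37.1 CPM, and Mrps28 at 19.9, 22.4 and 19.0 CPM against 16.3, 13.0 and 13.0 CPM. None of these genes had overlapping groups, and DESeq2 called all 3, along with Mrpl28, Mrpl36, Mrpl47 and the 4 genes above.

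**Figure D1:**
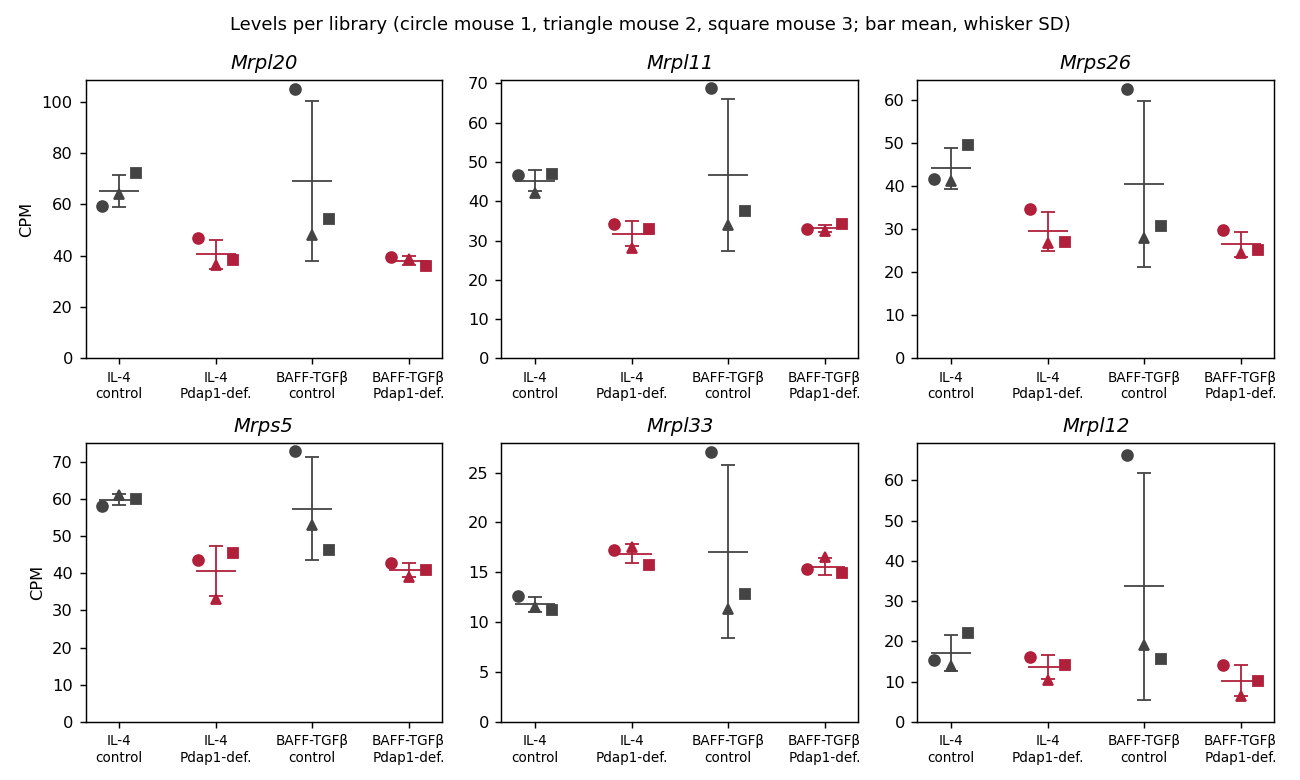
CPM per library for 6 mitochondrial ribosomal protein genes in the 4 groups, with each mouse as a symbol, the group mean as a bar and the SD as a whisker. Mrpl20, Mrpl11, Mrps26 and Mrps5 were lower in the 3 Pdap1-deficient than in the 3 control libraries with LPS-IL-4, Mrpl33 was higher, and Mrpl12 was at 66.2 CPM in control mouse 1 with LPS-BAFF-TGFβ against at most 22.2 CPM in any other library.

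Large and small subunit genes had similar medians. The median log2 fold change was −0.29 over 48 large subunit genes and −0.32 over 26 small subunit genes, and 0.02 over all genes tested. All 26 small subunit genes and 46 of 48 large subunit genes were below 0. The CPM of the 3 Pdap1-deficient mice lay below that of all 3 controls for 22 large and 19 small subunit genes, 41 of 74 in all, where this held for 16.1% of all genes tested. Some symbols do not match the place of the protein: the products of Mrps30 and Mrps18a sit in the large subunit, and that of Mrps36 belongs to the alpha-ketoglutarate dehydrogenase complex. Mrps30 was at −0.29 ± 0.13, Mrps18a at −0.30 ± 0.13 and Mrps36 at −0.22 ± 0.23, none past the threshold. With these genes moved to their place the medians were −0.29 (50 large subunit genes) and −0.34 (23 small subunit genes).

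The members also varied among themselves. Mrpl33, a small protein of the large subunit, had the highest log2 fold change of all members, at 12.6, 11.5 and 11.2 CPM in controls and 17.3, 17.6 and 15.8 CPM in Pdap1-deficient cells. The groups did not overlap, but the change of 0.51 ± 0.14 had an adjusted p of 0.0584 in edgeR. Mrps18c showed the smallest difference of the small subunit genes, at −0.13 ± 0.36, with controls at 5.27, 5.13 and 13.3 CPM. Its relatives Mrps18b and Mrps18a, encoded by separate genes, were at −0.21 ± 0.18 and −0.30 ± 0.13. Mrpl58, also called Ict1, a peptidyl-tRNA hydrolase built into the large subunit, was at −0.03 ± 0.13. The 95% interval of that value was −0.28 to 0.21.

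The mice did not contribute equally. Taking the median over members of the log2 difference from the control mean, the 3 Pdap1-deficient libraries with LPS-IL-4 were at −0.15, −0.49 and −0.27 for large subunit genes and at −0.22, −0.46 and −0.29 for small subunit genes, while the controls were between −0.09 and 0.08. Mouse 2 was the lowest of the 6 libraries for 57 of 74 members. Over the 4 myeloid markers tested, the median difference from the control mean was −0.99, 4.42 and 2.04 in Pdap1-deficient mice 1, 2 and 3. Among these mice, the one with the highest myeloid markers had the lowest member medians and the one with the lowest had the highest. In the controls the 10 myeloid markers summed to only 5.22 to 16.4 CPM, so log2 differences there rest on few counts. The 4 markers were at 0.06, −0.97 and 1.02 in these controls, beside −0.07, −0.005 and 0.08 for all members. The part of the myeloid markers in the result was not tested. Without Pdap1-deficient mouse 2, 6 members fell and Mrpl33 rose, with an adjusted p of 0.0404 in edgeR. In that setting 4.49% of all genes tested fell, and the medians were −0.20 and −0.25. Without Pdap1-deficient mouse 1, 21 members fell, where 5.32% of all genes tested did, and without Pdap1-deficient mouse 3 or any of the 3 control mice, 0 of 74 passed in edgeR, and between 0.0701 and 0.213% of all genes tested fell. The number of calls thus rested on single mice, whereas the medians kept their sign in each of these 6 settings.

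**Figure D2:**
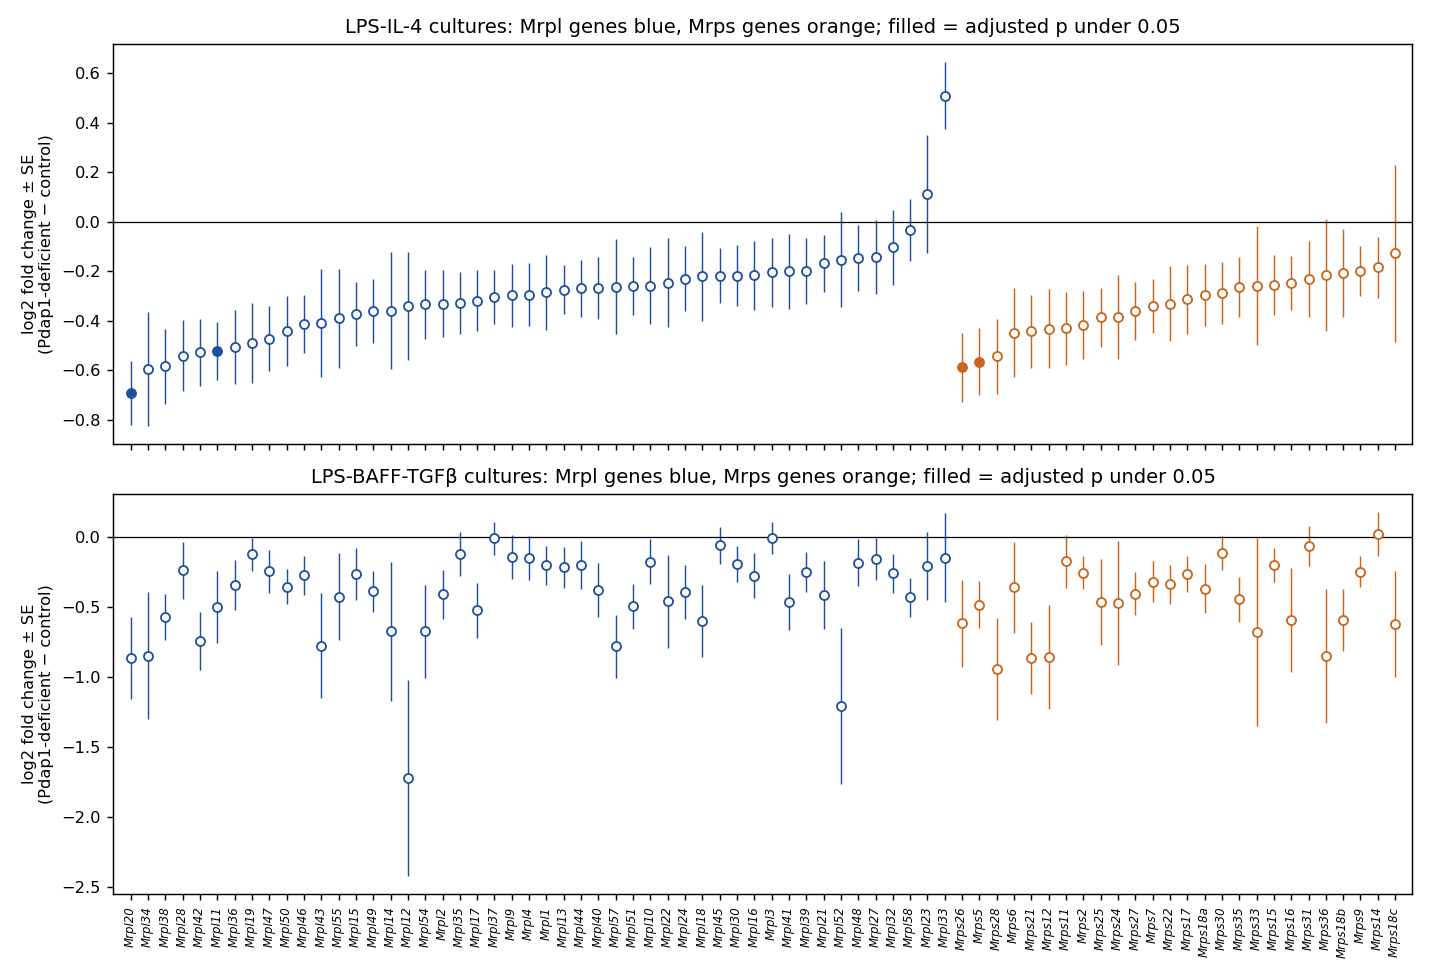
Log2 fold change of Pdap1-deficient over control cells with SE for the 74 genes tested, in LPS-IL-4 (top) and LPS-BAFF-TGFβ cultures (bottom), large subunit genes in blue and small subunit genes in orange, both panels in the order of the top panel, with filled points for an adjusted p under 0.05. Of the points, 72 lie below 0 in the top panel, where 4 are filled, and 73 in the bottom panel, where none is filled.

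In LPS-BAFF-TGFβ cultures, 73 of 74 members were below 0 in Pdap1-deficient cells, but 0 passed the threshold in edgeR or in DESeq2. Few genes of any kind fell in this comparison, 0.0071% of those tested, and 0.455% rose. At an unadjusted p under 0.05 in edgeR, 19 members were lower and 0 higher, where 744 and 742 of 14079 genes tested were. The median was −0.35 for large and −0.42 for small subunit genes, against 0.01 for all genes tested, and the groups did not overlap for 27 members, all lower, where this held for 9.08% of all genes tested.

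These medians depended on 1 library. Control mouse 1 was the highest of the 6 libraries for 64 of 74 members and lay above the mean of the other two controls for 66 of them, by a median of 0.51 on the log2 scale. Without it, the medians were −0.12 for large and −0.17 for small subunit genes, with 63 of 74 below 0 and 0 called. All 3 Pdap1-deficient mice were below the remaining controls for 29 members, where this held for 14.8% of all genes tested. The myeloid markers were again highest in Pdap1-deficient mouse 2, with medians of −0.95, 4.55 and 1.81 in the 3 mice beside −0.25, −0.40 and −0.25 for large subunit genes. In the 3 controls, where the 10 markers summed to only 16.5 to 26.3 CPM, these medians were 0.35, −0.83 and 0.45. Large subunit genes were at 0.34, −0.16 and −0.16 there. The excess in control mouse 1 differed between members. It was greatest for Mrps33 (2.06), Mrpl12 (1.93), Mrpl14 (1.70) and Mrpl52 (1.69), and Mrpl39 and Mrpl1 were lower there than in the other two controls, by −0.40 and −0.31. Its median was 0.63 against the control mean for the third of members with the shortest transcripts (up to 1165 bases) and 0.30 for the third with the longest (above 2780 bases), and 0.16 and −0.02 for all genes of those lengths. Depth, transcript length and the identity of this mouse moved together here, and their parts in the result were not tested.

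Mrpl12, whose protein also binds the mitochondrial RNA polymerase, was at 66.2, 19.1 and 15.6 CPM in controls and 14.2, 6.40 and 10.1 CPM in Pdap1-deficient cells. Control mouse 1 stood apart, and the change of −1.72 ± 0.70 had an adjusted p of 0.487 in edgeR. In LPS-IL-4 cultures the same gene was at 15.3, 13.8 and 22.2 CPM against 16.2, 10.5 and 14.2 CPM, and the groups overlapped. The smallest p-values among large subunit genes belonged to Mrpl42 (−0.74 ± 0.21), Mrpl57 (−0.78 ± 0.23) and Mrpl38 (−0.57 ± 0.16), and among small subunit genes to Mrps21 (−0.86 ± 0.26), Mrps5 (−0.48 ± 0.17) and Mrps35 (−0.44 ± 0.16). Mrpl42 was at 69.2, 47.9 and 49.0 CPM in controls and 38.1, 23.7 and 37.0 CPM in Pdap1-deficient cells, which did not overlap, with an adjusted p of 0.290 in edgeR. Mrps21 was at 55.5, 26.8 and 32.1 CPM against 22.3, 21.1 and 19.8 CPM, and Mrpl57 at 41.4, 23.6 and 27.4 CPM against 21.1, 15.1 and 17.6 CPM, again without overlap and with control mouse 1 the highest. Mrps12, a protein of the decoding centre, was at 32.4, 12.3 and 13.8 CPM against 10.5, 12.2 and 10.1 CPM, and its change of −0.85 ± 0.37 had an adjusted p of 0.475 in edgeR. The large and the small subunit gene furthest above their medians were Mrpl3 at −0.0026 ± 0.11 and Mrps14 at 0.02 ± 0.16.

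The 4 genes that fell with LPS-IL-4 were again lower in the mean with LPS-BAFF-TGFβ. Mrpl20 was at 105, 48.2 and 54.2 CPM in controls and 39.4, 38.6 and 36.1 CPM in Pdap1-deficient cells (−0.86 ± 0.29, adjusted p of 0.404 in edgeR), and Mrps5 at 73.1, 52.9 and 46.4 CPM against 42.9, 39.0 and 41.0 CPM (−0.48 ± 0.17, adjusted p of 0.381 in edgeR), without overlap in either gene. Mrpl11 at −0.50 ± 0.26 and Mrps26 at −0.62 ± 0.31 had overlapping groups. The Pdap1-deficient cultures came from the same mice in both stimulations, so these values are not independent of those with LPS-IL-4.

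A difference of the genotype effect between the stimulations was not detected for any member: 0 of 74 passed in edgeR, where 0% of all genes tested did, and 0 of 74 in DESeq2. Of 15794 genes tested, 501 were lower and 254 higher at an unadjusted p under 0.05 in edgeR. Among the members, Mrpl58 was the single such gene. Its level was 17.95, 20.1 and 20.7 CPM in controls and 20.4, 18.4 and 19.0 CPM in Pdap1-deficient cells with LPS-IL-4, but 28.1, 24.1 and 26.5 CPM against 19.4, 19.2 and 19.7 CPM with LPS-BAFF-TGFβ. The groups overlapped in the first culture and not in the second, and the term was −0.41 ± 0.16, with an adjusted p of 0.983 in edgeR. The medians of the term were −0.06 for both subunits, against −0.04 for all genes tested, and 0.17 for both without control mouse 1.

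The number of genes that differed between the stimulations depended on control mouse 1: 3 of 74 passed in control mice with this mouse and 19 without it. Comparing LPS-BAFF-TGFβ with LPS-IL-4 in control mice, Mrpl19 and Mrpl37, both large subunit proteins, fell and Mrpl58 rose, 3 of 74, where 9.33% of all genes tested fell and 9.99% rose. Mrpl19 was at 77.1, 84.2 and 81.9 CPM with LPS-IL-4 and at 64.9, 64.1 and 55.5 CPM with LPS-BAFF-TGFβ. Its log2 fold change was −0.39 ± 0.10, with an adjusted p of 0.0224 in edgeR. Gcfc2 on the other strand covered 36.0% of the Mrpl19 exon length, and the strand setting of the counting was not given. Mrpl37 was at 73.3, 71.3 and 75.3 CPM against 56.99, 60.1 and 49.8 CPM, −0.40 ± 0.10 with an adjusted p of 0.0245 in edgeR. Mrpl58 changed by 0.43 ± 0.12 with an adjusted p of 0.0415 in edgeR, and of 0.0985 without control mouse 1. None of the 3 groups of values overlapped. The Mrps30 gene, at 76.3, 79.6 and 71.0 CPM against 59.1, 61.9 and 63.1 CPM, was just beyond the threshold (−0.30 ± 0.09, adjusted p of 0.0503 in edgeR). The next small subunit genes were Mrps35 at 0.30 ± 0.11 and Mrps15 at −0.21 ± 0.10. At an unadjusted p under 0.05 in edgeR, 6 members were lower and 2 were higher, where 2236 and 2451 of 14882 genes tested were.

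Within mice, the shift between cultures again set control mouse 1 apart. Over large subunit genes, the medians of the 3 control mice were 0.52, −0.13 and −0.26, and those of the 3 Pdap1-deficient mice were −0.12, 0.11 and −0.06. Over small subunit genes it was 0.41, −0.27 and −0.34 in controls and −0.07, −0.01 and −0.09 in Pdap1-deficient mice. Without control mouse 1, 19 members fell with LPS-BAFF-TGFβ (11 large and 8 small subunit genes) and none rose in edgeR, where 13.3% of all genes tested fell, and the medians turned from 0.12 to −0.15 for large and from −0.02 to −0.26 for small subunit genes. With each control mouse as its own reference (mouse as a block), 0 of 74 passed, where 6.38% of all genes tested fell. Without control mouse 2 or 3, 0 passed as well, where 3.83% and 2.82% of all genes tested fell.

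In Pdap1-deficient mice 0 of 74 passed in edgeR and in DESeq2, where 5.89% of all genes tested fell and 5.57% rose in edgeR. At an unadjusted p under 0.05 in edgeR, 1 member was lower and 2 were higher, where 1690 and 1748 of 14617 genes tested were. With the mouse as a block, 4 passed: Mrps18b and Mrpl30 fell and Mrpl13 and Mrpl45 rose, where 13.5% of all genes tested fell and 12.8% rose. Mrps18b was at 23.1, 18.7 and 28.6 CPM with LPS-IL-4 and at 16.9, 14.5 and 15.7 CPM with LPS-BAFF-TGFβ, lower in each mouse, and at −0.57 ± 0.18 without the block (adjusted p of 0.0679 in edgeR). Mrpl45 was at 113, 98.6 and 124 CPM against 131, 127 and 153 CPM, higher in each mouse, and Mrpl13, at 0.25 ± 0.11 without the block, was at 52.3, 47.8 and 49.2 CPM against 60.3, 53.5 and 63.3 CPM. Mrpl30 was at 62.6, 55.8 and 70.0 CPM against 53.1, 45.0 and 56.4 CPM. Each of the 4 genes moved one way in all 3 mice, which their choice by the fit with the mouse as a block favours. Next by p among small subunit genes were Mrps25 at 0.34 ± 0.17 and Mrps18a, which was at 38.4, 30.2 and 33.7 CPM against 28.9, 28.5 and 26.8 CPM. Genes on the other strand covered 69.8% of the exon length of Mrps25 (Nr2c2) and 30.5% of that of Mrps18b (Gm16279).

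**Figure D3:**
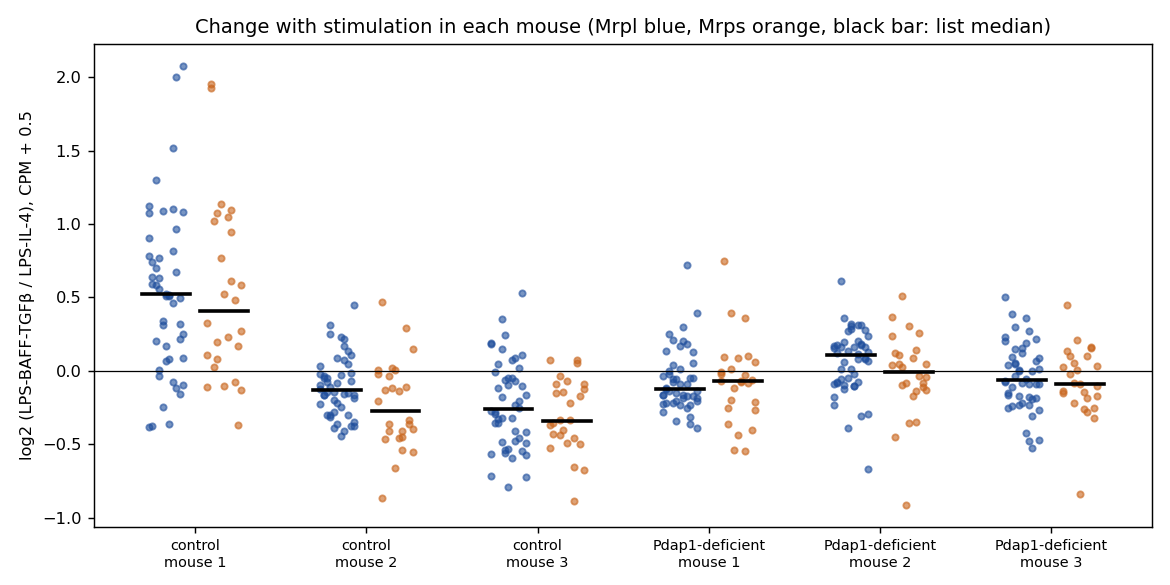
Log2 ratio of LPS-BAFF-TGFβ to LPS-IL-4 levels (CPM + 0.5) in each mouse, with a point per gene, large subunit genes in blue, small subunit genes in orange and the list median as a black bar. The medians of control mouse 1 (0.52 and 0.41) lie above those of the other 5 mice, which are between −0.34 and 0.11.

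The mitochondrial ribosomal protein genes were next set beside other gene lists, nuclear and mitochondrial, in the same fits. With LPS-IL-4, the other large nuclear lists were lower by similar amounts: OXPHOS subunits (−0.32, 8 of 73 fell), cytosolic ribosomal proteins (−0.35, 9 of 79 fell) and mitochondrial import and chaperones (−0.35, 4 of 31 fell). Ribosome biogenesis genes, which build cytosolic ribosomes in the nucleolus, were lower still (−0.43, 18 of 68 fell). Of all genes tested, 2.12% fell in this comparison. Named by the smallest p-values, Sdhd (−0.71 ± 0.11), a subunit of succinate dehydrogenase, Rplp1 (−0.66 ± 0.11), a stalk protein of the cytosolic ribosome, Tomm40 (−0.60 ± 0.12), the pore of the outer membrane, and Rrp9 (−0.79 ± 0.13), a snoRNP protein, fell in edgeR. The 10 measured genes encoded by mitochondrial DNA had a median of 0.03 with 0 of 10 called in edgeR (0 also at an unadjusted p under 0.05), and the largest of them by count, mt-Co1, was at 7985, 8010.5 and 7773 CPM in controls and 9050.1, 7215 and 10137 CPM in Pdap1-deficient cells, which overlapped. The mitochondrial rRNAs mt-Rnr1 and mt-Rnr2, of which only what rRNA depletion left was counted, were at 0.68 ± 0.29 and 0.55 ± 0.19, neither past the threshold.

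Genes that work with the mitochondrial ribosome were divided. Of all genes tested with LPS-IL-4, 2.12% fell, and 1765 of 15074 were lower at an unadjusted p under 0.05 in edgeR. The 5 ribosomal proteins without an Mrp symbol had a median of −0.28 with 0 called in edgeR (2 lower at an unadjusted p under 0.05), and 25 assembly factors the same median with 0 called (6 lower at an unadjusted p under 0.05). Of 15 mitochondrial translation factors (median −0.14), Tsfm and Tufm fell. Tufm is the elongation factor that brings aminoacyl-tRNA to the mitochondrial ribosome, and Tsfm reloads it with GTP. Tsfm changed by −0.65 ± 0.13 (adjusted p of 0.0215 in edgeR). Tufm was at 54.8, 57.8 and 58.0 CPM in controls and at 41.7, 30.3 and 37.8 CPM in Pdap1-deficient cells (−0.65 ± 0.13, adjusted p of 0.0263 in edgeR), without overlap. The 20 genes for loading mitochondrial tRNAs had a median of −0.19 with 0 called in edgeR (5 lower at an unadjusted p under 0.05). Of 15 genes for mtDNA replication and transcription (median −0.20), Twnk, the mtDNA helicase, fell (−0.49 ± 0.10, adjusted p of 0.0278 in edgeR). Among 9 regulators of mitochondrial biogenesis (median −0.17, 0 called in edgeR, 2 lower at an unadjusted p under 0.05) the smallest p belonged to Myc, at −0.55 ± 0.15. Atf4 targets, genes of the integrated stress response, moved the other way, with a median of 1.596 and 23 of 27 risen, where 2.79% of all genes tested rose. Chac1 rose by 3.19 ± 0.16. Prdm1, a regulator of plasma cell fate, rose in the same comparison (1.82 ± 0.16, adjusted p of 0.000323 in edgeR), while none of the other plasma cell markers passed.

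With LPS-BAFF-TGFβ the medians were −0.59 for OXPHOS subunits, −0.57 for cytosolic ribosomal proteins, −0.30 for ribosome biogenesis, −0.27 for import and chaperones, −0.10 for genes encoded by mitochondrial DNA and 1.57 for Atf4 targets, of which 20 of 26 rose, where 0.455% of all genes tested rose. Without control mouse 1 these medians were −0.07, −0.16, −0.28, −0.20, 0.28 and 2.07. In that library the medians against the control mean were 0.34 and 0.37 for large and small subunit genes, 0.70 for OXPHOS subunits, 0.58 for cytosolic ribosomal proteins and 0.15 for genes encoded by mitochondrial DNA.

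Set out by library, large subunit, small subunit, OXPHOS and cytosolic ribosomal protein genes had medians between −0.15 and −0.56 in the 6 Pdap1-deficient libraries. With LPS-IL-4, all of these were below the control libraries. With LPS-BAFF-TGFβ, control mice 2 and 3 were also below the control mean, which control mouse 1 raised, at −0.16 to −0.20 for both subunits and −0.29 to −0.44 for the other two lists, and every Pdap1-deficient library was below these control libraries for both subunits and for cytosolic ribosomal proteins but not for OXPHOS subunits. Genes encoded by mitochondrial DNA were at 0.13, 0.05 and 0.06 in Pdap1-deficient mice with LPS-IL-4 and at 0.48, −0.33 and −0.43 with LPS-BAFF-TGFβ. With LPS-IL-4, the mitochondrial ribosomal protein genes thus lay with the nuclear lists, cytosolic ones included, and apart from the transcripts of mitochondrial DNA. No test of this likeness was made, since genes are not replicates and the comparisons share libraries.

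**Figure D4:**
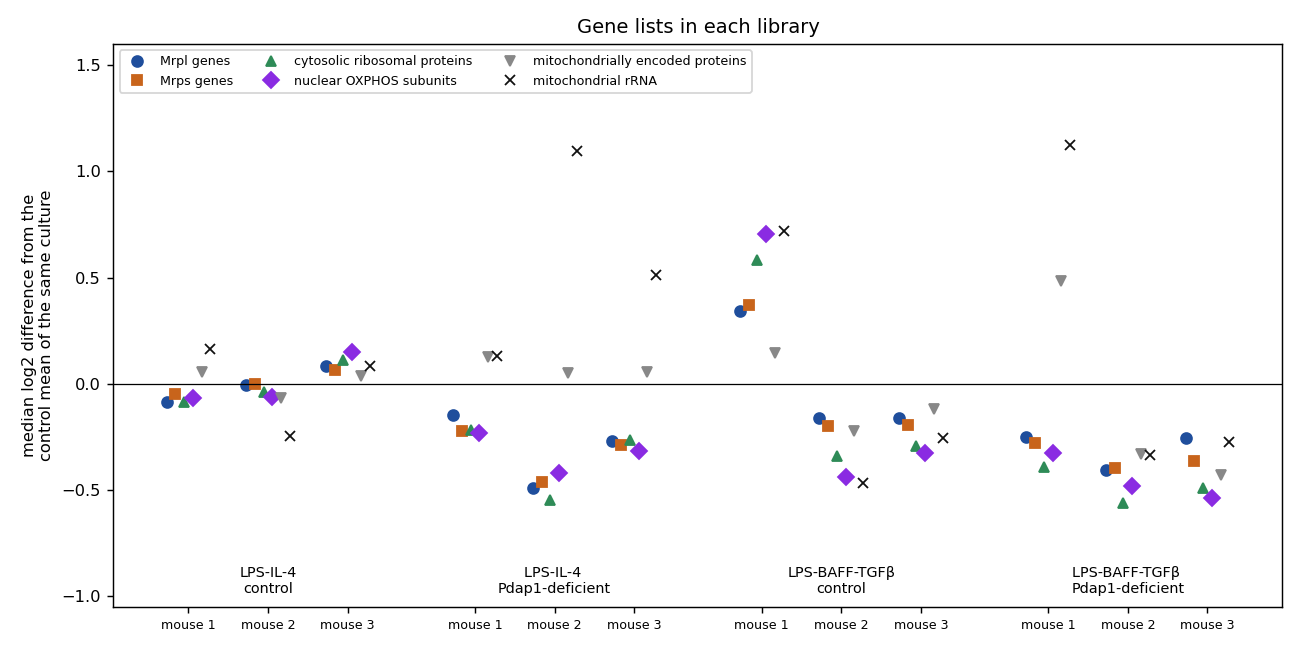
Median log2 difference from the control mean of the same culture in each of the 12 libraries, for large and small subunit genes, cytosolic ribosomal proteins, nuclear OXPHOS subunits, genes encoded by mitochondrial DNA and mitochondrial rRNA. The first 4 lists lie below 0 in the 6 Pdap1-deficient libraries and above 0 in control mouse 1 with LPS-BAFF-TGFβ, where the other two controls lie below 0 as well, and the genes encoded by mitochondrial DNA lie on both sides of 0.

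The shift between stimulations in control mice split the same lists differently. Genes encoded by mitochondrial DNA had a median of 0.59 with LPS-BAFF-TGFβ over LPS-IL-4 (3 of 10 rose), OXPHOS subunits of 0.42 (1 fell and 1 rose of 73), cytosolic ribosomal proteins of 0.29 (1 fell and 2 rose of 79) and ribosome biogenesis genes of −0.24 (20 of 68 fell). Of all genes tested, 9.33% fell and 9.99% rose in this comparison. Without control mouse 1, OXPHOS subunits were at −0.16 and cytosolic ribosomal proteins at −0.21, beside −0.15 and −0.26 for large and small subunit genes, whereas the genes encoded by mitochondrial DNA remained above 0, at 0.43.

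Unlike the excess in control mouse 1, the genotype difference with LPS-IL-4 was of like size in short and long members. The third of members with the shortest transcripts had medians of −0.24, −0.45 and −0.34 in the 3 Pdap1-deficient mice, and the third with the longest had −0.17, −0.52 and −0.28.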

How the data were processed

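RNA-seq libraries of B cells from 3 control and 3 Pdap1-deficient mice in 2 cultures each were grouped by GEO's labels. The counts per gene, as deposited by the authors, are not normalized. The submitters' processing notes and the study's methods name Trim Galore 0.6.1, STAR 2.6 on GRCm38, HTSeq 0.9.1 and DESeq2; the strand setting of the counting was not given in the sources used here. The deposited table of normalized values was not used. The labels and the methods name different library kits. The locus that carries Cre is not reported here.

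Symbols, positions and exon lengths came from GENCODE M21. CPM was scaled by TMM over the 12 libraries. Each comparison was fitted in edgeR 4.0.16 (R 4.3.3) with filterByExpr, TMM and robust quasi-likelihood tests on its own libraries, and Benjamini-Hochberg adjusted p under 0.05 was called. Library medians used log2 CPM with a prior count of 2. The fits were tested on simulated data. DESeq2 1.42.0, other filters (none, or 10 counts in every library), thinning, a length and GC offset, left-out mice and a mouse block were alternatives. Both cultures of a mouse share its number, per the series' description, so the block pairs samples between cultures. The deviations of same-mouse libraries correlated at −0.181, 0.341 and −0.0228 in controls and 0.579, 0.622 and 0.293 in Pdap1-deficient mice. Between cultures of different mice they correlated at −0.407 to 0.366 in controls and −0.576 to 0.0124 in Pdap1-deficient mice. The values thus set same-mouse pairs apart in Pdap1-deficient mice but not in controls.

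Members and lists were chosen with earlier results of these data known. Named genes were, per comparison of genotype or stimulation, the 3 large and 3 small subunit members of smallest p and those past the threshold (where at most 10 passed), the member of each subunit furthest against its median, the 2 highest and 2 lowest per kb, and Mrps30, Mrps18a, Mrps36, Mrps18b, Mrps18c, Mrpl12 and Mrps12. From other lists they were those past the threshold if at most 3, otherwise 3 by p, of which the text gives some.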

Additional observations from a re-analysis of the deposited data

How the results depend on the processing

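Of 204 alternatives for the counts of genes past the threshold and the subunit medians, 173 kept the value within a set tolerance. A median was kept if it moved by less than the SD between libraries of a group. A small change of a count, such as 4 genes to 5, was also taken as kept, and so was a count that stayed at 0. Of the alternatives for single genes none turned a called direction. With LPS-IL-4, the 4 genes became 10 in DESeq2 (2.29% of all genes fell), 16 without a filter on low counts (2.80%), 0 with all 12 libraries in one fit (1.28%), 16 at an adjusted p under 0.1, 0 at an adjusted p under 0.01, and 0 to 21 with a mouse left out. The subunit medians of that comparison stayed between −0.20 and −0.41 in every setting. With LPS-BAFF-TGFβ, 5 genes passed without a filter (0.374% of all genes fell) and 0 in each other setting; with a mouse left out the medians were −0.42 to −0.12 for large and −0.52 to −0.17 for small subunit genes, the value nearest 0 being without control mouse 1 in both. Between stimulations in control mice, the 3 genes became 0 at an adjusted p under 0.01, 7 at an adjusted p under 0.1, 0 to 19 with a mouse left out, and the medians ran from −0.15 to 0.26 for large and from −0.26 to 0.10 for small subunit genes, lowest without control mouse 1. In Pdap1-deficient mice 1 gene passed without a filter (4.15% of all genes fell), 1 at an adjusted p under 0.1, and 0 to 1 with a mouse left out (1.10 to 8.31%). For adjusted p under 0.1 or 0.01, the share of all genes is not given here. For the term of genotype by stimulation the medians with a mouse left out were −0.16 to 0.17 for large and −0.20 to 0.17 for small subunit genes, highest without control mouse 1. The cause of these changes was not tested.

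With the mouse as a block, 0 genes passed between stimulations in control mice and 4 in Pdap1-deficient mice, where 6.38% and 13.5% of all genes fell. With the length and GC offset added to the block, 4 passed in control mice, the 3 of the report and Mrpl3, and 3 in Pdap1-deficient mice, where 10.9% and 14.9% of all genes fell. The block without control mouse 1, chosen after seeing the data, gave 28 genes (26 lower, where 18.1% of all genes fell) and a large subunit median of −0.14. Between genotypes the replicate number marks no shared animal; there the block gave 5 genes for the IL-4 cultures and 0 for the BAFF-TGFβ cultures, and it changed no call of the term of genotype by stimulation.

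Precision was limited by 3 mice per group and by a median of 138 to 504 counts per member in all libraries but the deep one. Mrpl53, Mrps10, Mrps23 and Mrps34 were not tested.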

Other observations

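Many mitochondrial ribosomal protein genes shared their start region with a gene on the other strand. Among the 78 members, 18 (23.1%) had the start of another protein-coding gene within 1000 bases on the opposite strand, pointing away, against 1491 of 21951 protein-coding genes (6.79%). Mrps12 lay 172 bases from Sars2, which loads mitochondrial seryl-tRNA, and Mrpl49 lay 59 bases from Fau, which encodes a cytosolic ribosomal protein fused to a ubiquitin-like part. Both could be tested in 16 pairs. With LPS-IL-4, the median log2 fold change of Pdap1-deficient over control cells was −0.29 for the members and −0.12 for their partners, of which 14 were below 0 and 0 passed in edgeR. With LPS-BAFF-TGFβ it was −0.44 for the members and −0.05 for the partners, of which 9 were below 0 and 0 passed in edgeR. Sars2 was at −0.22 ± 0.12 and Mrps12 at −0.43 ± 0.16 with LPS-IL-4, and Fau was at −0.48 ± 0.15 and Mrpl49 at −0.36 ± 0.13. No test of the difference between members and partners was made.

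Lars2, which loads mitochondrial leucyl-tRNA, had 942, 989 and 4784 CPM in control and 109680, 18567 and 10339 CPM in Pdap1-deficient libraries with LPS-BAFF-TGFβ. All 3 Pdap1-deficient libraries were above all 3 controls, where this held for 1345 of 14079 genes tested, but the change of 4.37 ± 1.44 had an adjusted p of 0.442 in edgeR. In Pdap1-deficient mouse 1 the level was above the sum of the 79 cytosolic ribosomal protein genes, at 21860 CPM. Whether these reads came from Lars2 mRNA was not tested. Lars2 was chosen after its values were seen.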
